A study of Mus musculus with 18 samples.

Results

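The genes described here are 9 genes of choline kinase and phosphatidylcholine synthesis: Chka, Chkb, Pcyt1a, Pcyt2, Cept1, Chpt1, Etnk1, Slc44a1, and Slc44a2. The set was chosen by the measured counts of Chka, which rose with collagen density in these same libraries, and the other 8 were added for their place in the pathway. All 9 were found among the 29875 genes of the count table, and all 9 were among the 13844 genes that passed the filter on low counts and were tested. Since the density trend of Chka was the reason for the choice, its values over the collagen densities are given as a description without a test.

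Phosphatidylcholine, the main phospholipid of mammalian membranes, is built by the CDP-choline pathway. Choline enters the cell through transporters such as those of the Slc44 family and is phosphorylated by choline kinase. The product is joined to CTP by CTP:phosphocholine cytidylyl transferase, usually the slow step, and CDP-choline is then condensed with diacylglycerol by a choline phosphotransferase. A parallel ethanolamine branch, with its own kinase and cytidylyl transferase, makes phosphatidylethanolamine. Choline kinase is encoded by Chka and Chkb, whose products act as dimers and can also phosphorylate ethanolamine. In maturing dendritic cells (DCs), new phospholipid is needed for the growth of the endoplasmic reticulum and Golgi apparatus.

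The DCs were grown with granulocyte-macrophage colony-stimulating factor from bone marrow of wild-type C57Bl6/J mice aged 8 to 12 weeks and were matured with lipopolysaccharide (200 ng/ml) for 24 hours. They were placed in bovine collagen gels of 1.7, 2.6, 3.5, or 4.4 mg/ml with a gradient of the chemokine CCL19, or in the same chambers without collagen (suspension), and RNA was taken 5 hours after the gradient was set up. The 18 libraries form 6 groups of 3 replicates, 4 of collagen and 2 of suspension. For suspension, titles and library names contradict each other on CCL19, so these groups go by their titles, plus CCL19 and without CCL19, and nothing is said of what CCL19 did. A replicate number is shared by libraries with the same run code, digit, and date in their names. A replicate thus stands for 1 such date and code, with all 6 groups present. Replicates 1 and 3 share a run code that replicate 2 does not have. Bulk cultures of this kind are mixed, and fewer cells of a type cannot be told apart from less RNA per cell.

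Total counts ranged from 13062944 to 28059839 per library (median 17344953.5), and 0 of 153 pairs of libraries held identical counts. At these depths 3 counts equal 0.107 to 0.230 CPM (counts scaled to a common library size with edgeR's TMM method, the level used throughout). All 12 DC markers, such as Itgax, Cd74, and Ccr7, were detected in each group, with a summed level of 20603 to 64467 CPM, and 1 of them was lower in collagen than in suspension. Markers of eosinophils moved with the collagen condition. All 9 were detected, 1 of them was at 0 in the 1.7 mg/ml group and 1 in the 4.4 mg/ml group, and their summed level was 14.1 to 169.5 CPM in the 12 collagen libraries and 117.9 to 1360 CPM in the 6 suspension libraries. Of the 8 that were tested, 8 were lower in collagen. Of 11 neutrophil markers 3 were lower, with sums of 1186 to 5403 CPM in collagen and 782.1 to 10065 CPM in suspension. Of 9 macrophage markers none was called without the replicate block and 6 were higher with it. Of 6 basophil and mast cell markers none was called without the block and 2 were lower with it. With the block 1 of 3 tested B and T cell markers was lower. Of all genes tested, 7.78% were called higher and 12.4% lower in collagen, or 15.6% and 19.3% with the block. At 2.6 mg/ml 7.87% were called without the block. None of 3 tested fibroblast markers was called in collagen against suspension, but 1 was higher at 2.6 mg/ml, where replicate 2 had a sum of 113.4 CPM and all other libraries at most 10.8 CPM, and erythroid markers were at most at 0.137 CPM. The part of these cells in the results below was not tested.

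The region in front of Chka is shown because Chka is the gene for which the set was chosen. The gene (ENSMUSG00000024843) lies on the plus strand of chromosome 19, from 3851773 to 3894369 in GRCm38. The 250 bases upstream of its start, chr19:3851523-3851772 on the plus strand (RefSeq, GRCm38.p6), are given 5′ to 3′ with GC boxes (GGGCGG) and CCAAT boxes (CCAAT), on either strand, in capitals.
Chka: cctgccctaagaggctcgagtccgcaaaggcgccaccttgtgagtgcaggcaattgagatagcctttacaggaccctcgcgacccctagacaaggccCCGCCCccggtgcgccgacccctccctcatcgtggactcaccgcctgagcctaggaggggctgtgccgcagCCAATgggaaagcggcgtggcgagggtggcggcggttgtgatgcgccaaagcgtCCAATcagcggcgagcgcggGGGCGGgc
The window was 68% G and C. GC boxes began at -153 and -8 and CCAAT boxes at -82 and -28 from the start, while 32.7% and 33.8% of 32851 mouse promoter windows of the same length hold at least 1 of these motifs. The letters ACGTG (hypoxia response core, in 16.6% of windows), CACGTG (E-box, which contains ACGTG, 6.02%), TGACTCA (AP-1 site, 4.46%), TGACGTCA (cAMP response element, 1.55%), and GAANNTTC (heat shock element core, 6.69%) were not in this window on either strand. The window of Chkb, at 52.4% G and C, held 1 GC box and 2 CCAAT boxes and none of the other 5 motifs. Among the genes of the set, 8 had a window in the promoter table and Pcyt2 had none. A match of letters is a description of the sequence only.

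Per kilobase of principal transcript, the cytidylyl transferase gene Pcyt1a had the highest mean of the 9 over each condition, at 69.8 ± 23.6 CPM/kb in suspension (SD, n = 6) and 78.6 ± 24.6 in collagen (SD, n = 12). Chka was at 18.6 ± 3.09 CPM/kb in suspension, near Pcyt2 (20.2 ± 6.02) and Slc44a2 (19.0 ± 8.83), and at 62.5 ± 30.5 in collagen, where of the 9 only Pcyt1a was above it. At 4.4 mg/ml the order was the other way, with Chka at 109.2 ± 14.3 CPM/kb and Pcyt1a at 77.0 ± 43.1 (SD, n = 3), and the spread of Pcyt1a was wide. This order depends on the length used. Per kilobase of all annotated exons Chka (23.1 CPM/kb) was below Pcyt1a (49.7) at 4.4 mg/ml. On that scale Chka in suspension was at 3.94, below Pcyt2 (8.74) and Slc44a2 (7.55). Chkb was the least abundant, at 0.951 ± 0.433 CPM/kb in suspension and 1.23 ± 0.354 in collagen.

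**Figure D1:**
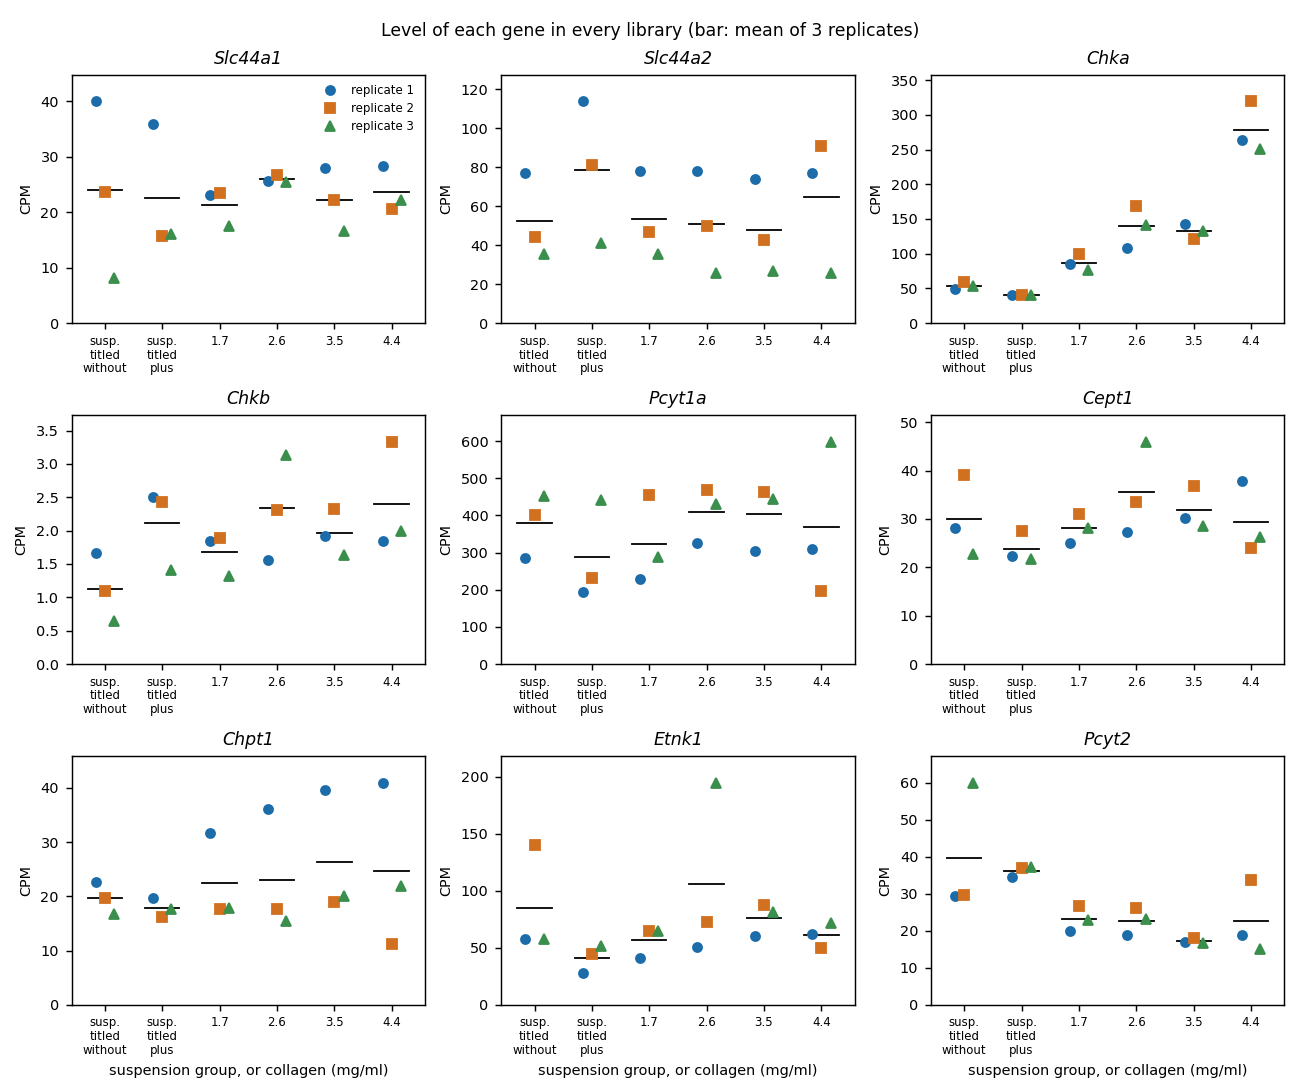
Level of the 9 genes in each library in CPM (y axes from 0) for the suspension groups and the 4 collagen densities in mg/ml (x axis). Symbols mark the replicate and bars the mean of 3 replicates. The 12 collagen libraries lie above the 6 suspension libraries for Chka (76.2 to 319.6 against 40.2 to 59.1 CPM), and at 4.4 mg/ml all 3 lie above every other library.

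Chka, the kinase of the first committed step of the choline branch, had its lowest levels in suspension. In the group titled plus CCL19 the level was 41.1, 40.2, and 40.9 CPM in replicates 1, 2, and 3. In the group titled without CCL19 it was 49.3, 59.1, and 53.4 CPM. The difference between these groups did not pass the test (log2 fold change -0.40 ± 0.23 [SE], adjusted p = 0.761). Across the gels Chka was at 85.3, 99.2, and 76.2 CPM in those of 1.7 mg/ml and at 108.2, 168.6, and 141.4 CPM in those of 2.6 mg/ml. The gels of 3.5 mg/ml gave 143.4, 121.2, and 132.8 CPM, and those of 4.4 mg/ml gave 264.2, 319.6, and 250.9 CPM. All 3 libraries at 4.4 mg/ml were thus above all others, all at 1.7 mg/ml were below those of the denser gels, and the 2.6 and 3.5 mg/ml groups overlapped. The fitted slope was 0.55 ± 0.08 (SE) on the log2 scale per mg/ml. Within replicates 1, 2, and 3 it was 0.59, 0.51, and 0.56. In this fit 1 of the 13844 genes (0.00722%), Chka itself, was past the threshold, from which nothing is read because the trend chose it. No gene was past it with total counts, without any 1 of the replicates, without replicate 2 at 4.4 mg/ml, or with the collagen libraries alone.

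The difference between the gels and suspension is another contrast than the density trend, but it shares the 12 collagen libraries that chose Chka, those at 4.4 mg/ml included. Its p-values for Chka are therefore a description and no independent evidence. Chka was 159.2 ± 77.8 CPM in collagen (SD, n = 12) and 47.3 ± 7.88 CPM in suspension (SD, n = 6), and the ranges did not overlap, as was the case with collagen higher for 0.506% of all genes tested. The fitted log2 fold change of the mean of the 4 gels against the mean of both suspension groups was 1.63 ± 0.15 (SE), a 3.10-fold higher level, with an adjusted p of 6.64e-05 (edgeR's quasi-likelihood F-test, Benjamini-Hochberg over all genes). The difference was 1.60, 1.71, and 1.56 in the 3 replicates taken alone, and 24.3% of all genes were likewise higher in 3 of 3. Without the 4.4 mg/ml group it was 1.32 (adjusted p = 0.000457).

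The separate densities were compared with the same 6 suspension libraries, so their values are not independent. Their collagen libraries are also those of the density trend that chose Chka. The adjusted p-values of Chka at single densities are therefore a description and no independent evidence. At 1.7 mg/ml Chka was 0.89 ± 0.19 (SE) above suspension on the log2 scale, which did not pass without the replicate block (adjusted p = 0.237) and did with it (0.89, adjusted p = 0.0274). At 2.6 mg/ml it was 1.57 ± 0.19 higher (adjusted p = 0.00109), and 1.41 higher without the library high in fibroblast markers (adjusted p = 0.0146). At 3.5 mg/ml it was 1.50 ± 0.19 higher (adjusted p = 0.00401). The call at 2.6 mg/ml was lost without replicate 2 or replicate 3, and that at 3.5 mg/ml without any 1 of the replicates. At 4.4 mg/ml, the top of that trend, the difference of 2.57 ± 0.19 is given without a test. Over the rising densities these fits called 0.0361%, 7.87%, 4.9%, and 14.8% of all genes, or 2.91%, 21.6%, 18.4%, and 31.9% with the block (DESeq2 called Chka at 1.7 mg/ml, with 1.02% of all genes).

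Chkb (ENSMUSG00000022617, chromosome 15, 89426360 to 89429908, minus strand), the other choline kinase gene, was at a low level, with 11 to 49 counts in the suspension libraries and 22 to 100 in the collagen libraries. Its level was 2.50, 2.43, and 1.41 CPM in suspension titled plus CCL19 and 1.66, 1.09, and 0.638 CPM in suspension titled without CCL19. In the gels it ranged from 1.31 to 3.33 CPM and overlapped both suspension groups. The fitted difference between collagen and suspension was 0.42 ± 0.29 (SE) and did not pass the test (adjusted p = 0.381). Of its 3061 exonic bases, 1552 are also annotated to Gm44502 on the same strand and 320 to C730034F03Rik on the other, so part of its reads may not be its own and its level is uncertain.

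The ratio between the kinase genes has Chka, by which the set was chosen, as its numerator and is given without a test. The CPM ratio of Chka to Chkb was 20.6 ± 7.24 (SD, n = 3) in suspension titled plus CCL19 and 55.8 ± 27.1 in suspension titled without CCL19. Over the 4 rising densities it was 52.2 ± 5.96, 62.4 ± 15.1, 69.3 ± 15.1, and 121.5 ± 23.7. The suspension group titled without CCL19, at 29.7, 54.1, and 83.7, thus covered the whole range of the gels up to 3.5 mg/ml, and the 3 libraries at 4.4 mg/ml (142.9, 96.0, and 125.6) were above all others. On the log2 scale the ratio per exon length was 1.20 higher in collagen than in suspension (12 against 6 libraries), and 0.94 higher without the 4.4 mg/ml group.

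Of the choline transporters, Slc44a2 was above Slc44a1 per kilobase in suspension (19.0 and 7.49 CPM/kb) and in collagen (15.7 and 7.52 CPM/kb). Slc44a1 (chromosome 4, 53440413 to 53622478) had a lowest, median, and highest level of 8.11, 19.9, and 40.0 CPM in suspension and 16.6, 23.3, and 28.4 CPM in collagen. Its fitted difference was 0.00 ± 0.27 (SE, adjusted p = 0.997), with an approximate 95% interval of -0.53 to 0.53. For Slc44a2 (chromosome 9, 21320698 to 21355028) the values were 35.7, 60.6, and 113.9 CPM in suspension and 25.7, 48.3, and 90.8 CPM in collagen, with a difference of -0.25 ± 0.32 (adjusted p = 0.662). Slc44a2 followed the replicate number. In 5 of the 6 groups Slc44a2 was highest in replicate 1, and in all 6 groups it was lowest in replicate 3. With the replicate block its difference was -0.27 ± 0.15 (SE, adjusted p = 0.201). Within replicates 1, 2, and 3 it was -0.29, -0.13, and -0.44 (lower in 3 of 3, as for 26.7% of all genes). Neither Slc44a1 nor Slc44a2 passed the test along the densities (slopes of 0.03 ± 0.16 and 0.08 ± 0.19 per mg/ml).

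Pcyt1a (ENSMUSG00000005615, chromosome 16, 32430921 to 32475070, plus strand) encodes the alpha form of the choline cytidylyl transferase. Its level was 192.7, 230.5, and 442.8 CPM in suspension titled plus CCL19 and 285.8, 401.5, and 453.3 CPM in suspension titled without CCL19. In the gels its lowest, median, and highest levels were 197.4, 378.2, and 597.8 CPM, and the lowest and the highest were both at 4.4 mg/ml. The groups overlapped, and the difference of 0.18 ± 0.25 (SE) did not pass the test (adjusted p = 0.696, approximate 95% interval -0.32 to 0.67). Pcyt1b, the beta form, was not tested, with at most 4 counts in any library.

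The last step of the choline branch is carried out by Chpt1, a choline phosphotransferase, and by Cept1, which accepts both CDP-choline and CDP-ethanolamine. Cept1 (chromosome 3, 106502260 to 106547802) was at 21.7 to 39.1 CPM in suspension and at 24.0 to 45.9 CPM in collagen, a difference of 0.22 ± 0.17 (SE, adjusted p = 0.451). Chpt1 (chromosome 10, 88452745 to 88504073) was at 16.2 to 22.7 CPM in suspension and at 11.3 to 40.9 CPM in collagen. In replicate 1 it was at 31.7, 36.1, 39.6, and 40.9 CPM over the rising densities, in replicate 2 at 17.6, 17.6, 19.0, and 11.3 CPM, and in replicate 3 at 17.8, 15.5, 20.1, and 21.9 CPM. Its difference from suspension was 0.80 in replicate 1, -0.15 in replicate 2, and 0.12 in replicate 3, and the fitted 0.36 ± 0.28 did not pass the test (adjusted p = 0.430).

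In the ethanolamine branch, Etnk1 (chromosome 6, 143167221 to 143232307), an ethanolamine kinase gene, varied widely. It was at 27.9, 44.3, and 51.7 CPM in suspension titled plus CCL19 and at 57.5, 140.1, and 57.5 CPM in suspension titled without CCL19. In collagen 11 of 12 libraries lay between 41.4 and 88.0 CPM, and replicate 3 at 2.6 mg/ml was at 194.9 CPM. Its difference of 0.30 ± 0.28 (SE) from suspension did not pass the test (adjusted p = 0.533).

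Pcyt2 (ENSMUSG00000025137, chromosome 11, 120610087 to 120617936, minus strand), the gene of the ethanolamine cytidylyl transferase and thus the counterpart of Pcyt1a, moved in the opposite direction to Chka. It was at 34.5, 37.0, and 37.2 CPM in suspension titled plus CCL19 and at 29.6, 29.6, and 60.0 CPM in suspension titled without CCL19. Gels of 1.7 mg/ml gave 19.9, 26.7, and 23.1 CPM, and those of 2.6 mg/ml gave 18.8, 26.2, and 23.1 CPM. Gels of 3.5 mg/ml gave 17.1, 18.1, and 16.7 CPM, and those of 4.4 mg/ml gave 19.0, 33.6, and 15.0 CPM. All collagen libraries except replicate 2 at 4.4 mg/ml were thus below all 6 suspension libraries. The mean was 21.4 ± 5.34 CPM in collagen (SD, n = 12) and 38.0 ± 11.3 CPM in suspension (SD, n = 6). Pcyt2 fell by 0.83 on the log2 scale (-0.83 ± 0.19 [SE], adjusted p = 0.0105), and the difference was -0.77, -0.37, and -1.30 in replicates 1, 2, and 3 (lower in 3 of 3, as for 26.7% of all genes). When replicate 3 was left out, the difference of -0.55 missed the threshold (adjusted p = 0.152). Without replicate 3 of the suspension group titled without CCL19 alone, the library at 60.0 CPM, it was -0.62 (adjusted p = 0.0437), and with GC content and exon length as offsets it was -0.56 (adjusted p = 0.0898).

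Against suspension the separate densities, in rising order, gave a difference of Pcyt2 of -0.71 (adjusted p = 0.560), -0.74 (0.160), -1.14 (0.0633), and -0.75 (0.116), so that the gels of 3.5 mg/ml alone passed. With the replicate block the values at 2.6 and 4.4 mg/ml also passed (adjusted p = 0.0663 and 0.0450). Along the densities Pcyt2 did not pass (slope of -0.06 ± 0.11 per mg/ml, adjusted p = 0.990). All 8 tested eosinophil markers were lower in collagen too, as given above, and their part in the difference of Pcyt2 was not tested. Their sums in replicates 1, 2, and 3 were 149.2, 1360, and 950.0 CPM in suspension titled plus CCL19 and 117.9, 188.4, and 505.4 CPM in suspension titled without CCL19. Replicate 3 of the latter had the highest Pcyt2 of all libraries. Among the gels, replicate 2 at 4.4 mg/ml had both the highest eosinophil sum (169.5 CPM) and the highest Pcyt2. Replicate 2 at 3.5 mg/ml went the other way, with the next highest sum of the gels (112.9 CPM) and Pcyt2 at 18.1 CPM. Replicates 2 and 3 of suspension titled plus CCL19 had the highest sums of all (1360 and 950.0 CPM). Their Pcyt2, at 37.0 and 37.2 CPM, was below that of replicate 3 titled without CCL19. It was above that of all other libraries.

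Among the 9 genes, 1 was called higher (Chka) and 1 lower (Pcyt2) in collagen, where 7.78% of all genes tested were called higher and 12.4% lower (20.2% in all, 34.8% with the replicate block and 24.7% with DESeq2, which called the same 2 of the 9). The median log2 fold change over the 9 was 0.22, and that over all genes was 0.00. Chka chose the set through the same collagen libraries, so its call is a description only. Of the other 8 genes, 0 were higher and 1 was lower, and their median was 0.20. In the density trend none of the 8 genes other than Chka was called, without the block or with it (1.45% of all genes). At an unadjusted p under 0.05 there was likewise none among them, and with DESeq2, which called 0.881% of all genes, also none. Their slopes ranged from -0.06 to 0.14 per mg/ml with SEs of 0.10 to 0.19. Between the suspension groups 0 of the 13844 genes (0%) were called by edgeR, with or without the block, and 0 by DESeq2 without it. DESeq2 with the block called 194 genes and edgeR with no filter on low counts 10, none of them among the 9. In that comparison 855 genes, Etnk1 among the 9, had an unadjusted p under 0.05.

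**Figure D2:**
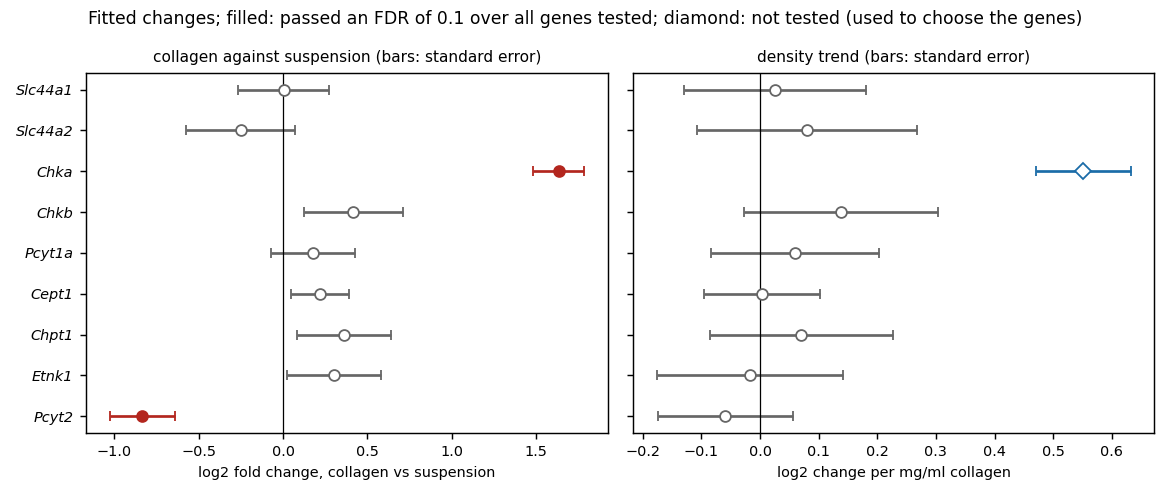
Fitted log2 fold change of collagen against suspension (left) and fitted log2 change per mg/ml of collagen (right) for the 9 genes, with bars of 1 SE. Filled circles passed an FDR of 0.1 over all genes tested, open circles did not, and the diamond is the density slope of Chka, which chose the set and was not tested. Chka (1.63) and Pcyt2 (-0.83) lie on opposite sides of 0 on the left, and the other slopes on the right lie within -0.06 to 0.14.

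Further genes around these steps were taken from 11 lists of phosphatidylcholine metabolism, with 75 genes beside the 9. Of these, 71 were in the table and 59 were tested. In collagen against suspension 6 were higher, 11 lower, and 42 did not pass, beside 7.78% and 12.4% of all genes. With the replicate block 14 were higher and 15 lower (15.6% and 19.3% of all genes). The median log2 fold change of the 59 was -0.03. In the density trend none passed (with the block Lpcat1 and Pnpla6 fell, of 0.65% of all genes that fell).

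In choline and ethanolamine uptake 1 of 6 tested genes was higher and none lower. This was Mfsd2a, a transporter of lysophosphatidylcholine, which was at 7.49 ± 3.31 CPM in collagen and 3.39 ± 1.63 in suspension (log2 fold change 1.14 ± 0.32 [SE], adjusted p = 0.0284). The CTP synthase genes Ctps and Ctps2 did not pass. Neither did the genes of the phosphatidylserine and methylation routes, Ptdss1, Ptdss2, Pisd, and Pemt, of which Pisd was lower with the replicate block.

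Diacylglycerol, the lipid onto which phosphocholine is transferred, comes from phosphatidic acid. Of 13 tested genes of this supply 2 were higher, 1 was lower, and 10 did not pass. Plpp1, a lipid phosphate phosphatase, rose most, from 2.78 ± 1.22 CPM in suspension to 8.66 ± 3.61 CPM in collagen (1.56 ± 0.30, adjusted p = 0.00325), and reached 13.4 ± 0.339 CPM at 4.4 mg/ml. Agpat5, an acyltransferase that forms phosphatidic acid, rose from 16.9 ± 4.35 to 29.5 ± 9.05 CPM (0.80 ± 0.24, adjusted p = 0.0382). Gpam, which codes for a mitochondrial acyltransferase of the preceding step, fell from 3.89 ± 2.65 to 1.30 ± 0.676 CPM (-1.60 ± 0.41, adjusted p = 0.0172).

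Reacylation of lysophospholipids had 3 of 6 tested genes lower and none higher. Lpcat1, a lysophosphatidylcholine acyltransferase, fell from 43.5 ± 9.56 CPM in suspension to 23.7 ± 10.4 CPM in collagen (-0.93 ± 0.23, adjusted p = 0.0137). It was at 28.2 ± 7.54, 27.5 ± 11.0, 25.8 ± 14.1, and 13.4 ± 2.50 CPM at the 4 rising densities. The related Lpcat3 (-0.47 ± 0.18, adjusted p = 0.0965) and Mboat1 (-1.30 ± 0.43, adjusted p = 0.0560) were also lower, the latter at 3 to 28 counts per collagen library.

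Among 16 tested genes of phosphatidylcholine breakdown 1 was higher and 4 were lower. Pla2g4a, cytosolic phospholipase A2, which releases arachidonate, rose from 15.7 ± 4.07 to 34.0 ± 12.0 CPM (1.13 ± 0.26, adjusted p = 0.00927). Pnpla7, a lysophospholipase, fell from 87.2 ± 21.3 to 43.2 ± 9.44 CPM (-0.99 ± 0.16, adjusted p = 0.00144), and its 12 collagen libraries were below all 6 suspension libraries, as for 1.52% of all genes. Pla2g6 (-1.13 ± 0.30, adjusted p = 0.0190), Pld2 (-0.56 ± 0.16, adjusted p = 0.0293), and Pld1 (-0.92 ± 0.26, adjusted p = 0.0299) were the others, the last 2 being phospholipases D, which free choline from phosphatidylcholine.

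Sphingomyelin synthesis takes the phosphocholine head group from phosphatidylcholine. Of 7 tested genes of sphingomyelin synthesis and breakdown 1 was higher and 2 were lower. The synthase gene Sgms1 rose from 21.3 ± 4.40 to 42.3 ± 8.56 CPM (0.97 ± 0.17, adjusted p = 0.00209). Of the sphingomyelinase genes, Smpd4 fell from 32.9 ± 3.25 to 25.3 ± 2.55 CPM (-0.38 ± 0.14, adjusted p = 0.0736). Smpd3 (-2.63 ± 0.75, adjusted p = 0.0296) had 1 to 37 counts per suspension library and 0 to 4 per collagen library and was not lower in replicate 1.

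Chdh, the choline dehydrogenase gene of choline oxidation, was lower at a low level (0.613 ± 0.446 against 1.71 ± 1.39 CPM, -1.37 ± 0.49, adjusted p = 0.0770). Of 3 phosphatidylcholine transfer proteins 1 was higher. Stard7, which carries phosphatidylcholine to mitochondria, rose from 55.7 ± 13.2 CPM in suspension to 104.1 ± 31.0 CPM in collagen (0.89 ± 0.22, adjusted p = 0.0140), by 0.92, 0.89, and 0.84 in the 3 replicates.

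**Figure D3:**
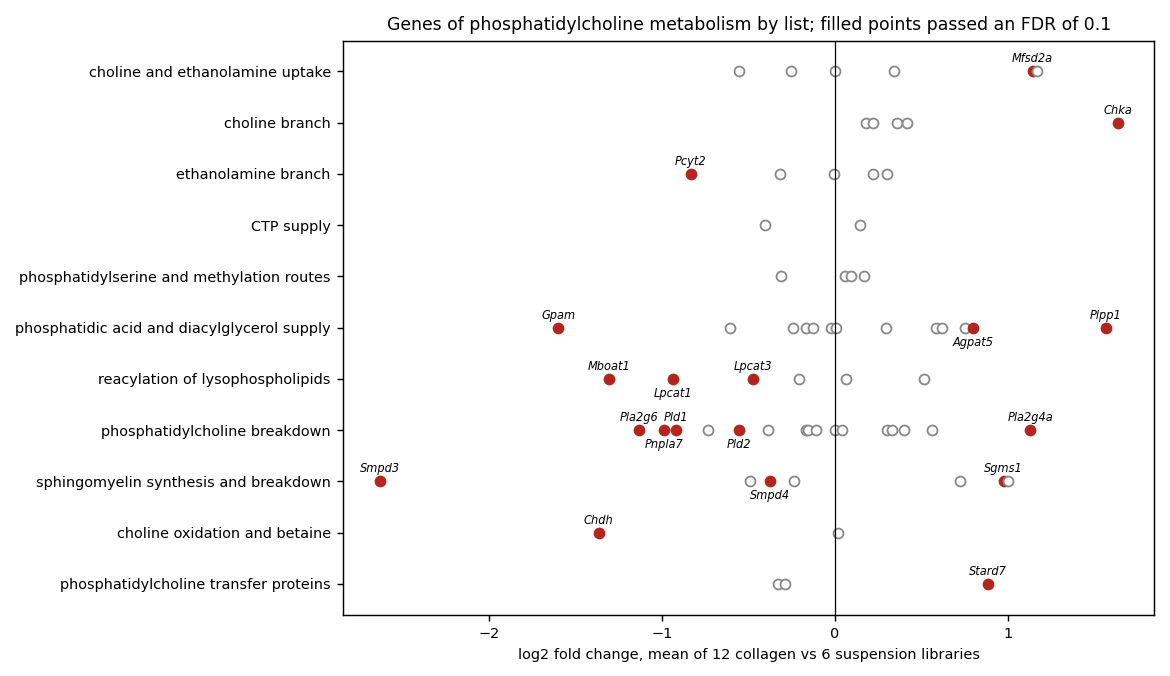
Fitted log2 fold change of collagen against suspension (x axis) for all tested genes of the 11 lists (rows), the 9 genes of the set included. Filled and named points passed an FDR of 0.1. Those to the right include Chka (1.63), Plpp1 (1.56), and Sgms1 (0.97), and all 3 called genes of lysophospholipid reacylation lie to the left.

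The patterns over the 18 libraries were compared by Pearson correlation of log2 CPM, as a description, since all genes share the same libraries. The 5 genes most like Chka among all genes tested were Tle4 (r = 0.94), a transcriptional corepressor gene, Dnajb4 (0.93), a heat shock cochaperone gene, Stil (0.93), a centriole assembly gene, Thap12 (0.93), and Eif4a1 (0.92), a translation initiation helicase gene. Of the other genes of the set, Chkb (0.44) and Cept1 (0.35) were most like Chka, and Pcyt2 (-0.60) and Slc44a2 (-0.14) were least like it. An r at or below that of Chkb was found for 85.9% of all genes tested, and for Cept1 the share was 80.7%. For Pcyt2 and Slc44a2 these shares were 8.78% and 37.9%. At 4.4 mg/ml Dnajb4 was at 69.9 CPM and at 14.5 CPM on average in suspension, and Tle4 was at 31.1 and 8.97 CPM. Stil was at 6.31 and 1.18 CPM, Thap12 at 197.3 and 68.1 CPM, and Eif4a1 at 86.4 and 41.8 CPM.

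**Figure D4:**
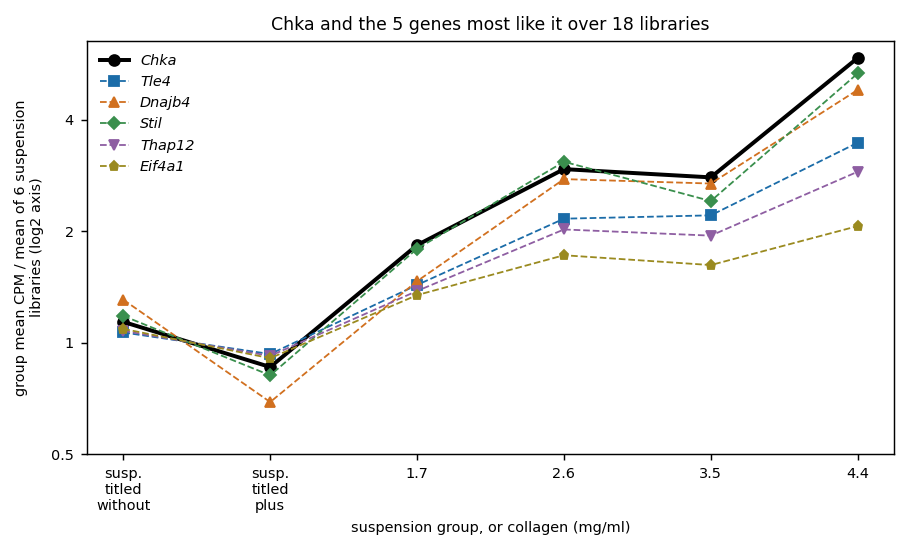
Group mean CPM of Chka and the 5 genes with the highest correlation to it, each divided by its own mean over the 6 suspension libraries (y axis, log2 scale), for the suspension groups and the 4 densities in mg/ml (x axis). All 6 genes are highest at 4.4 mg/ml, a shape that the choice by correlation to Chka favours. The means at 2.6 and 3.5 mg/ml are close together, as for Chka (139.4 and 132.4 CPM), least so for Stil (3.64 and 2.85 CPM).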

How the data were processed

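RNA was measured by 50-base single-end sequencing of stranded mRNA libraries from 18 samples of bone marrow–derived DCs. The reads were aligned to GRCm38 with STAR 2.7.0f, and the authors deposited raw read counts for each Ensembl identifier. The study's methods name RSEM for TPM values, which were not used here. Whether RSEM also gave these counts, the strand setting, and the handling of multiply mapped reads are not given in the sources used here, so genes that overlap others on either strand (Chkb, and to a lesser extent Pcyt1a, Cept1, Chpt1, Etnk1, and Slc44a1) are less certain. Symbols, coordinates, and lengths came from GENCODE M21 (GRCm38, 29866 of 29875 identifiers matched), and promoters came from RefSeq.

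Everything computed from these counts used R 4.3.3. Counts were filtered with filterByExpr, scaled by TMM, and fitted over all 18 libraries with edgeR 4.0.16 (quasi-likelihood F-test, FDR of 0.1 as in the study's methods), without a replicate term. SEs were derived from the F statistic, and a prior count of 2 was added for log2 CPM. DESeq2 1.42.0, the test named in the study's methods, and the other settings were alternatives. Replicate numbers pair the libraries, since same-numbered libraries share a date and a run code in their names. Their deviations from the group means correlated with a mean r of 0.43 over 45 pairs (-0.15 to 0.85). Pairs with other numbers from other groups had a mean r of -0.21. That value is no separate evidence, since deviations within a group cancel out and the first mean largely sets it. The biological coefficient of variation was 49.0%, or 33.1% with the block. Named genes were the 9 of the set, up to 3 genes per list and direction with the smallest p past the threshold, and the 5 genes most like Chka. Pld1 was named after its value was seen. Members and lists were chosen with earlier results of these data known. The labels call the replicates biological without naming separate mice, so p-values measure the spread between these samples.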

Additional observations from a re-analysis of the deposited data

Results flagged for a closer look

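Gaps between the highest or lowest sample and its nearest neighbour were compared with the whole range over the 6 suspension libraries for 26 items (the 9 genes of the set, the further named genes of the lists, and the ratio of Chka to Chkb). In 3 of them 1 library stood apart by more than Dixon's 95% limit, where chance gives about 1 in 20. All 3 were in the group titled without CCL19. Pcyt2 in replicate 3 stood at 60.0 CPM, with a gap of 0.750 of the range to the next library. Etnk1 in replicate 2 stood at 140.1 CPM, with a gap of 0.736 of the range. Cept1 in the same library stood at 39.1 CPM, with a gap of 0.633 of the range. Pcyt2 is given with and without its library beside the result, and neither Etnk1 nor Cept1 was called in any comparison without the replicate block.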

How the results depend on the processing

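Chka was called higher in collagen under every alternative run (log2 fold change 1.32 to 1.89), and the trend of the other 8 genes gave 0 calls under each. All these runs used libraries by which Chka was chosen, so its calls are no independent evidence. Against the suspension group titled plus CCL19 alone, Chka was 1.84 higher, and against that titled without CCL19 alone 1.43 higher (chosen after seeing the data, as was leaving out suspension titled without CCL19 replicate 3 or collagen 2.6 replicate 2). Pcyt2 was called under all but 1, at -0.55 without replicate 3. Without single replicates the genes called in collagen against suspension numbered 1 to 2, at 2.6 mg/ml 0 to 1, and at 3.5 mg/ml 0 to 0 in place of 2. At 1.7 mg/ml 1 gene in place of 0 was called with DESeq2, with the replicate block in edgeR or DESeq2, and with GC and length offsets with or without the block. At 2.6 mg/ml the replicate block gave 2 in place of 1, and 3 in DESeq2. At 3.5 mg/ml 1 in place of 2 was called with offsets, at an FDR of 0.05, with the compared libraries alone, and without suspension titled without CCL19 replicate 3. At 4.4 mg/ml 1 beside Chka in place of 0 was called with total counts, the replicate block in edgeR or DESeq2, the block with offsets, and without collagen 4.4 replicate 2. The cause of these shifts was not tested. With the replicate block the calls among the 9 genes in collagen against suspension and in the trend were as without it. Without single replicates the log2 ratio of Chka to Chkb was 0.90 to 1.48.

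The slope of Chka was 0.49 with total counts and 0.62 with offsets, with and without the block. Total counts moved the median of all genes to -0.15 (collagen against suspension). Of the genes called there, 38.6% were higher, 20.9% with total counts, 43.9% with DESeq2 size factors, 47.1% with DESeq2, 44.7% with the block, 50.6% with the block in DESeq2, 47.9% with offsets, and 50.8% with offsets and block. The number called ranged from 631 without replicate 2 to 5381 with the block in DESeq2, against 2790.

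Genes that were not called changed sign near 0 as follows. In collagen against suspension, Cept1 was -0.0212 with offsets and -0.0269 with offsets and block. Chkb was -0.0270 against the group titled plus CCL19, and Etnk1 -0.22, Pcyt1a -0.0211, Slc44a1 -0.0412, and Slc44a2 0.0418 against that titled without CCL19. Slc44a1 was -0.16 with total counts, -0.0372 with no filter, -0.12 with offsets, -0.00632 with offsets and block, -0.20 without suspension titled without CCL19 replicate 3, -0.00672 without 4.4 mg/ml, -0.00438 without collagen 2.6 replicate 2, and -0.21 to 0.49 without single replicates. In the trend, Cept1 was -0.0572 with total counts, -0.0140 with no filter, -0.00323 without collagen 2.6 replicate 2, and -0.00411 and -0.00688 with offsets without and with the block. Chpt1 was -0.0466 with offsets. Etnk1 was 0.0141 with the block, 0.0255 with it in DESeq2, 0.0108 and 0.00743 with offsets without and with it, and 0.0235 without collagen 4.4 replicate 2. Pcyt1a was -0.0123 and Slc44a1 -0.0296 with total counts, and Slc44a2 was -0.0292 without collagen 4.4 replicate 2. Without single replicates or that library slopes ranged from -0.0917 to 0.0602 (Cept1), -0.0878 to 0.0536 (Etnk1), -0.15 to 0.27 (Pcyt1a), -0.19 to 0.0172 (Pcyt2), -0.0110 to 0.0845 (Slc44a1), and -0.0504 to 0.18 (Slc44a2). Depth limits Chkb most, at 11 counts in its lowest library.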
